A study of Mus musculus with 6 samples.

Results

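The genes described here are 10 genes of the growing axon tip: Gap43, Basp1, Marcks, Marcksl1, Stmn1, Stmn2, Stmn3, Dpysl3, Tubb3 and Sprr1a. They were chosen by gene name from a table of 54532 genes, all 10 were found there, and all 10 were among the 16909 genes with enough reads to test. Bulk RNA-seq covered injured spinal cords of the mouse strain C57BL/6J, in 3 libraries of mice trained on the rotarod, a turning rod on which a mouse has to keep walking, and 3 libraries of injured mice with no such training. Both groups carry the label of day 28 after training, and both were injured, so levels cannot be set against an intact cord here. The labels used here give no age, sex, injury level or method, and do not say whether a library is 1 mouse or a pool, so p-values measure only the spread between these samples.

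The growth cone is the motile tip of a growing axon. GAP-43, BASP1 and the MARCKS proteins lie on the inner face of its membrane, where they bind calmodulin, are phosphorylated by protein kinase C and act on actin under the membrane. Stathmins bind tubulin dimers and destabilise microtubules, the tubulin gene Tubb3 encodes the beta-tubulin isotype typical of neurons, and DPYSL3 (CRMP4) is a collapsin response mediator protein that links guidance signals to the cytoskeleton. SPRR1A is a protein of the cornified envelope of skin that peripheral neurons switch on after their axon is cut. Genes of this kind are widely used as markers of axon regrowth. In adult cord several of them are also transcribed outside growing axons, Marcks in microglia among others, so a level in whole cord is not a measure of regrowth.

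The libraries held 15814104 to 26092014 counts, and the 10 genes together took 0.264% to 0.301% of each. All 8 Hox genes used as markers of cord position were detected, with sums of 554, 610.5 and 519 CPM in trained and 498, 514 and 493 CPM in untrained replicates (CPM are counts scaled to library size and by TMM, which corrects for library composition). Every trained sum was above every untrained one, with 4 genes positive, 4 negative and 0 past edgeR's test, and the part of cord position in the results was not tested. Hoxb8, with the smallest p of the 8, had a log2 fold change of 0.33 (edgeR adjusted p = 0.218) and was called by DESeq2 and by edgeR without a filter on low counts or without trained replicate 3. Neuron markers summed to 8568 to 10785.6 CPM. Trained replicate 1 stood apart in peripheral myelin: Prx, the gene for periaxin of Schwann cells, was at 0.580 CPM there and at 45.9 to 99.6 CPM in the other 5 libraries. Some sensory ganglion genes also varied within both groups. Scn10a was at 0 CPM in trained replicate 1 and untrained replicate 1 and at 9.18 CPM in untrained replicate 2. Not all genes of that list followed Scn10a. Scn9a varied less, at 10.3 to 13.7 CPM. P2rx3 was at 2.20 CPM in trained replicate 1, its highest trained library, and at 0.991 CPM in trained replicate 3. In bulk tissue, fewer cells of a type and less RNA per cell cannot be told apart.

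Per kilobase of the gene length in the table, Stmn3 was the highest of the 10 genes at a mean of 533 CPM per kilobase over the 6 libraries (range 468 to 608). Tubb3 followed at 329 (302 to 349) and Stmn1 at 168 (148 to 189). These top 3 did not overlap each other or the genes below them. Basp1 at 108, Gap43 at 98.4, Marcksl1 at 78.7, Stmn2 at 75.1 and Marcks at 60.8 CPM per kilobase formed a run in which each gene's range overlapped that of its neighbour. Within single libraries the order was steadier: Basp1 lay above Gap43, and Gap43 above Marcksl1, in 6 of 6 libraries, whereas Marcksl1 lay above Stmn2 in 3 of 6. Dpysl3 at 19.7 (18.4 to 21.3) was below all of these, and Sprr1a was lowest at 13.1 with the widest range, 6.38 to 19.3. Dpysl3 exceeded Sprr1a in 5 of 6 libraries. The 8 genes from Stmn3 to Marcks were above 95.57% or more of the 16909 genes tested on this scale, Marcks being the lowest of them, Dpysl3 was above 84.87% and Sprr1a above 76.76%. This scale depends on the length given for each gene, which for Stmn2 is 5602 bases. By CPM alone Stmn2 had group means of 417 (trained) and 425 (untrained), above the 342 and 305 of Stmn1.

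**Figure D1:**
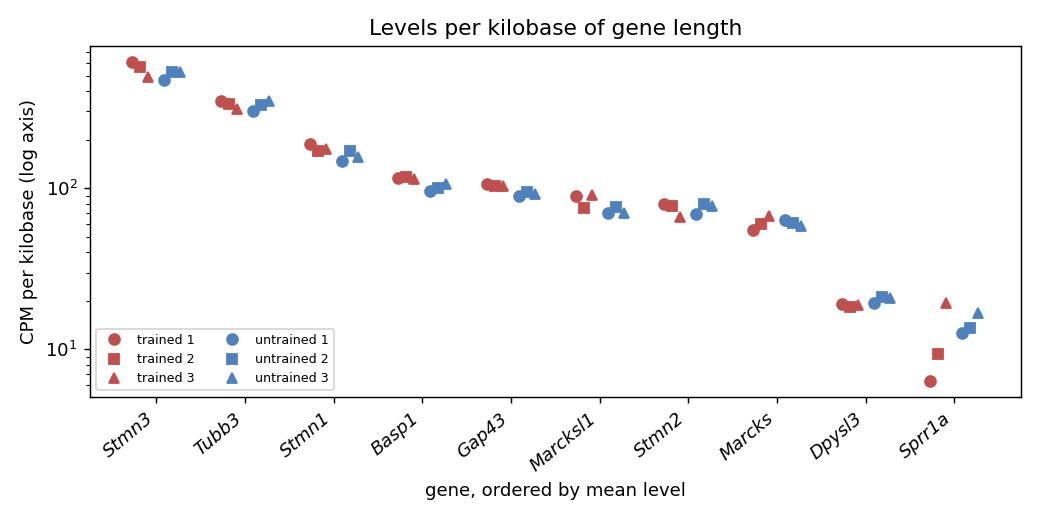
CPM per kilobase of gene length (vertical, log axis) for each of the 10 genes, ordered by mean level, with 1 point per library (red trained, blue untrained, marker shape giving the replicate number). Stmn3 lay at 468 to 608 and Sprr1a at 6.38 to 19.3, and trained and untrained libraries lay close together for each gene other than Sprr1a.

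Between trained and untrained cord, none of the 10 genes passed edgeR's quasi-likelihood test at a Benjamini-Hochberg adjusted p below 0.05 over all genes, a threshold that 0.0591% of genes passed (0.00591% higher and 0.0532% lower in trained cord). DESeq2 and limma-voom also called 0 of the 10. At an unadjusted edgeR p below 0.05, 3 of 10 were higher in trained cord (Gap43, Basp1 and Marcksl1) and 0 lower, against 4.47% higher and 5.55% lower over all genes. The groups did not overlap in 3 of 10 (Gap43 and Basp1 higher, Dpysl3 lower in trained cord), against 16.8% of all genes. The log2 fold change, trained over untrained, was positive in 7 of 10, against 48.0% of all genes, and negative in 3, with a median of 0.072 beside -0.0080 for all genes. For 9 of the 10, all but Sprr1a, the 95% intervals of the fold change lay between 0.827 and 1.34 in this fit. Each interval covers 1 gene taken alone. It does not include the larger SE of a fit with a replicate block, or the trend with gene length (both below).

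**Figure D2:**
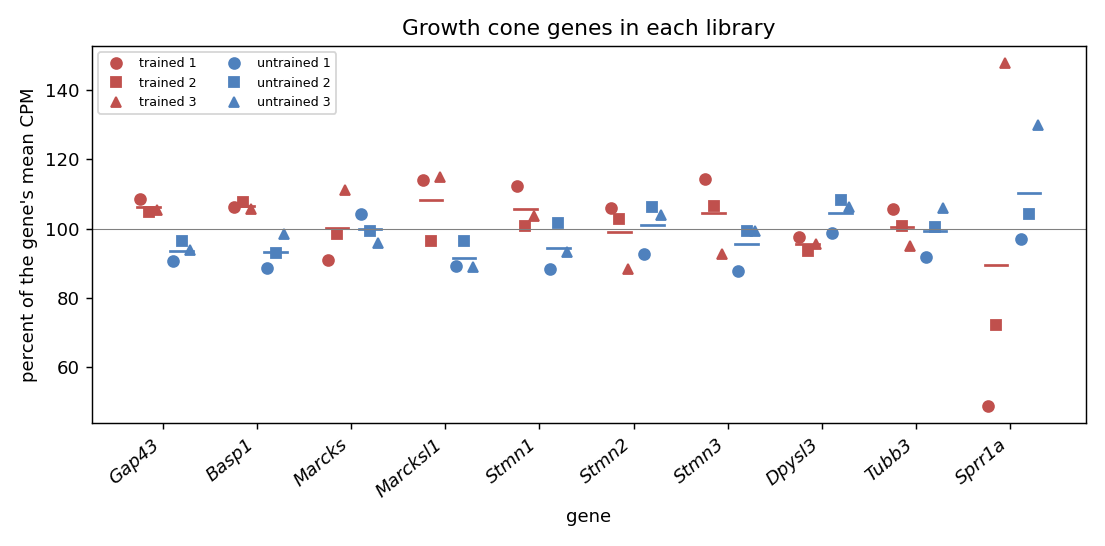
CPM of each gene in each library as a percent of that gene's mean over the 6 libraries (vertical), with 1 point per library and a short bar at each group's mean. Gap43 and Basp1 have every trained point above every untrained point, Dpysl3 has every trained point below, and Sprr1a spreads more widely than the other 9.

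Gap43, the growth-associated protein that gave the class its name, had 163, 157 and 158 CPM in the trained libraries (replicates 1, 2 and 3) and 136, 144 and 141 CPM without training. Every trained library was above every untrained one. The means were 159 ± 2.99 and 140.3 ± 4.27 CPM (SD, n = 3 each), a 1.14-fold difference. The log2 fold change of Gap43 was 0.18 ± 0.07 (SE), with a 95% interval of 0.042 to 0.33 and an edgeR adjusted p of 0.374.

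Basp1, also called CAP-23, an abundant myristoylated protein of axon endings, was at 231, 234 and 229.9 CPM in trained and 193, 202 and 214 CPM in untrained replicates. The groups did not overlap here either, and the trained libraries were close together. The means were 232 ± 2.27 and 203 ± 10.9 CPM (SD, n = 3 each). The log2 fold change of Basp1 was 0.19 ± 0.07 (SE), with an interval of 0.040 to 0.34 and an edgeR adjusted p of 0.388. The ratio of Gap43 to Basp1 counts, which does not depend on how libraries are scaled, was 0.688 ± 0.0165 in trained and 0.692 ± 0.0308 in untrained cord (SD, n = 3 each), with overlap, whereas 37.5% of all genes set against Basp1 did not overlap. Gap43 and Basp1 set against Marcksl1 overlapped too, against 31.3% of all genes that did not.

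Marcks, the myristoylated alanine-rich C kinase substrate, was at 224, 243 and 274 CPM in trained and 256, 245 and 236 CPM in untrained replicates. The trained libraries held both its lowest and its highest value, so the groups overlapped in full. Its log2 fold change was 0.0048, with an interval of -0.18 to 0.18 and an edgeR adjusted p of 0.992. The summed microglia markers, 8 genes, lay at 853, 945 and 1266 CPM in trained replicates 1, 2 and 3, the same order as Marcks within that group, and at 1291, 1173 and 1208 CPM in the untrained ones. The part of microglia in the Marcks values was not tested.

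Marcksl1, the smaller relative of Marcks, had the largest positive difference of the 10. It was at 144, 122 and 145 CPM in trained and 113, 122 and 112 CPM in untrained replicates. Trained replicate 2 lay just under untrained replicate 2, so the groups overlapped by that pair. The means were 137 ± 13.3 and 116 ± 5.39 CPM (SD, n = 3 each), and the log2 fold change was 0.24 ± 0.08 (SE) with an interval of 0.069 to 0.42 (edgeR adjusted p = 0.353). Counts of Marcksl1 per count of Marcks were 0.644, 0.502 and 0.531 in trained and 0.440, 0.498 and 0.477 in untrained replicates. This ratio was higher in every trained library, as was true, in either direction, of 10.2% of all genes set against Marcks. An exact two-sided permutation test gave p = 0.1, the smallest value that 3 libraries against 3 can reach (0.25 adjusted over the 10 ratios computed).

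Among the stathmins, Stmn1, the cytosolic member that dividing and immature cells also express, was at 364, 325 and 336 CPM in trained and 285, 329 and 301 CPM in untrained replicates. Untrained replicate 2 lay above trained replicate 2, so the groups overlapped. Its log2 fold change was 0.16 ± 0.08 (SE), with an interval of -0.0096 to 0.34 (edgeR adjusted p = 0.518). Markers of proliferating cells, 7 genes with Mki67 among them, summed to 15.9 to 30.2 CPM in trained and 22.2 to 25.8 CPM in untrained libraries, with 0 of 7 past the test.

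Stmn2, also called SCG10, a membrane-anchored stathmin of growth cones, was at 445, 432 and 372 CPM in trained and 390.0, 447 and 438 CPM in untrained replicates. Trained replicate 3 was its lowest library, and the groups overlapped. Its log2 fold change was -0.028, with an interval of -0.22 to 0.16 (edgeR adjusted p = 0.946). Trained replicate 3 was also the lowest of the 6 in the summed neuron markers, at 8568 CPM against 9384 CPM in the next lowest, untrained replicate 1.

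Stmn3, also called SCLIP, a neuronal stathmin anchored in the same way, was at 691, 645 and 560.3 CPM in trained and 532, 601 and 602 CPM in untrained replicates. The groups overlapped through trained replicate 3, and the log2 fold change was 0.13 ± 0.09 (SE) with an interval of -0.070 to 0.33 (edgeR adjusted p = 0.671). Ratios between the stathmins need no scaling of libraries, but they do not cancel a trend with gene length (described below). Stmn3 counts per Stmn2 count were 1.55, 1.49 and 1.51 in trained and 1.36, 1.34 and 1.38 in untrained replicates, with no overlap. Stmn1 counts per Stmn2 count were 0.816, 0.753 and 0.902 in trained and 0.732, 0.736 and 0.688 in untrained replicates, again with no overlap. Of all genes, 10.4% had a ratio to Stmn2 that did not overlap between groups. Each of these 2 ratios had an exact permutation p of 0.1, the smallest possible (0.25 adjusted over the 10 ratios), and Stmn1 per Stmn3 did overlap, at 0.543 ± 0.0494 and 0.528 ± 0.0245 (SD, n = 3 each).

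Tubb3 was at 649, 618 and 584 CPM in trained and 564, 617 and 651 CPM in untrained replicates. The groups spanned nearly the same range. The log2 fold change of Tubb3 was 0.015, with an interval of -0.16 to 0.19 (edgeR adjusted p = 0.971). Beta-tubulin genes are close in coding sequence, and how reads shared between them were counted is not given in the sources used here, so their separate levels are uncertain to that extent.

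Dpysl3 was the 1 gene with every trained library below every untrained one. It was at 120.0, 115 and 118 CPM in trained and 122, 133 and 131 CPM in untrained replicates, with means of 118 ± 2.38 and 129 ± 6.04 CPM (SD, n = 3 each). The gap between trained replicate 1 and untrained replicate 1 was small. The log2 fold change of Dpysl3 was -0.13 ± 0.07 (SE), with an interval of -0.27 to 0.018 (edgeR adjusted p = 0.543). Gap43 and Dpysl3 differed in opposite directions, and their ratio separated the groups by more than its spread within them: Gap43 counts per Dpysl3 count were 1.36, 1.36 and 1.34 in trained and 1.12, 1.08 and 1.08 in untrained replicates, with no overlap. Of all genes, 24.2% had a ratio to Dpysl3 without overlap. The pair was chosen after its values were seen, and its exact permutation p of 0.1 is again the smallest possible.

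**Figure D3:**
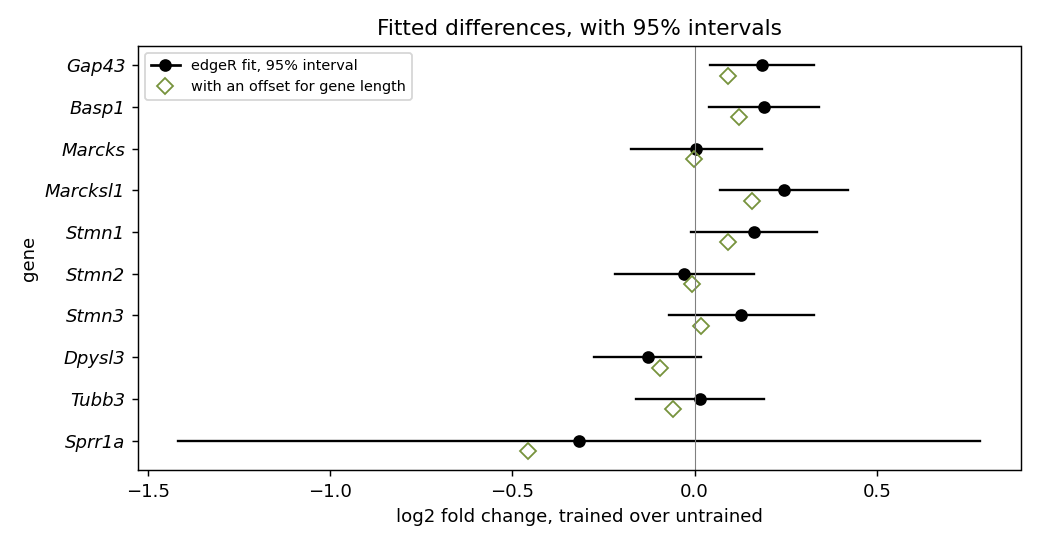
Log2 fold change of each gene, trained over untrained (horizontal), as black points with 95% intervals from the edgeR fit, and as open green diamonds from a fit with an offset for gene length. The intervals of Gap43, Basp1 and Marcksl1 lie above 0 without the offset, and the diamonds of 9 genes lie between -0.096 and 0.16, Sprr1a being at -0.46.

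Gene length moved with these differences. Over 10533 protein-coding genes at 10 CPM or more, the median log2 fold change fell from 0.11 in genes of up to 1000 bases to 0.078 at 1501 to 2000 bases, -0.0020 at 4001 to 5000 and -0.071 above 8000 bases. Positive values made up 75.1% of the shortest class and 25.2% of the longest. In the class of 1501 to 2000 bases the median deviation from the mean of the 6 libraries was positive in the 3 trained libraries (0.025 to 0.049, log2) and negative in the 3 untrained ones (-0.065 to -0.0094). The 5 genes with the largest positive log2 fold changes here, Marcksl1, Basp1, Gap43, Stmn1 and Stmn3, are 1136 to 2009 bases long in the table, while Marcks has 4048, Stmn2 5602 and Dpysl3 6265 bases. Sprr1a, the shortest at 806 bases, had the most negative log2 fold change, -0.32, so it lay apart from this order.

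Set against the median of their own length class, Marcksl1 remained 0.17 higher on the log2 scale, Basp1 0.14, Gap43 0.11, Stmn1 0.085 and Stmn3 0.027, while Dpysl3 stood at -0.078 and Sprr1a at -0.43 from theirs. Tubb3, of 1868 bases, stood at -0.063 from its class. An edgeR fit with an offset per library for gene length, added after seeing the data, gave log2 fold changes of 0.16 ± 0.07 (SE) for Marcksl1, 0.12 ± 0.06 for Basp1, 0.093 ± 0.06 for Gap43 and -0.096 ± 0.06 for Dpysl3. In that fit 0 of the 10 genes had an unadjusted edgeR p below 0.05, against 8.59% of all genes, 0 passed after adjustment, against 0.0473%, and 5 of 10 had positive log2 fold changes. Gap43, Basp1 and Dpysl3 still did not overlap between groups, against 14.9% of all genes. Stmn3, Stmn1 and Stmn2 were at 0.017, 0.091 and -0.0069 in that fit. Every count ratio above without overlap (Marcksl1 to Marcks, Stmn1 and Stmn3 to Stmn2, Gap43 to Dpysl3) set a shorter gene over a longer one. Counts of Gap43 and Basp1 per count of Marcks, also shorter over longer, did overlap. The part of length in these ratios was not tested. The offset removes any length-linked difference, whether it arose in the tissue or in the libraries, and which of these it was cannot be told apart here.

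**Figure D4:**
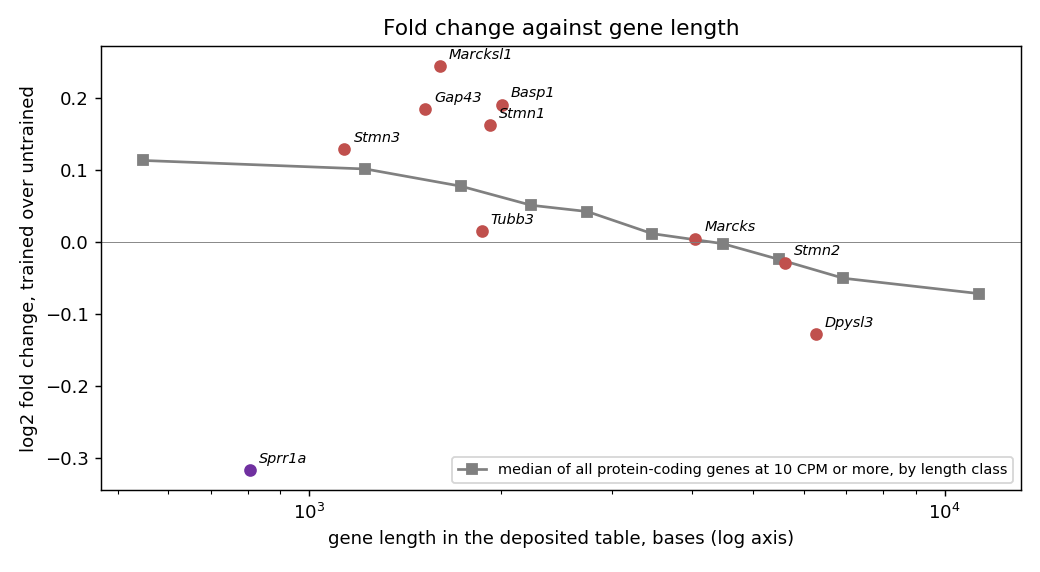
Log2 fold change, trained over untrained (vertical), against gene length in bases (horizontal, log axis): points are the 10 genes, and the grey squares and line are the medians of all protein-coding genes at 10 CPM or more in 10 length classes. The grey line falls from 0.11 to -0.071, with Gap43, Basp1, Marcksl1 and Stmn1 above it and Dpysl3, Tubb3 and Sprr1a below.

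Sprr1a varied most between libraries of one group. It had 133, 123 and 251 counts in trained and 187, 183 and 214 counts in untrained replicates, or 5.14, 7.59 and 15.6 CPM against 10.2, 10.98 and 13.7 CPM. The first and second trained libraries were lower than any untrained one, and the third was higher than all. The means were 9.43 ± 5.44 and 11.6 ± 1.81 CPM (SD, n = 3 each), and the log2 fold change was -0.32 ± 0.43 (SE) with an interval of -1.42 to 0.78 (edgeR adjusted p = 0.856). With trained replicate 3 left out, Sprr1a had a log2 fold change of -0.86 ± 0.20 (SE) and passed edgeR's test (adjusted p = 0.048), in a fit in which 221 genes passed. Without trained replicate 1 it was -0.0036.

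Of the 7 skin markers, the basal keratin genes Krt5 and Krt14 were at 0 to 0.308 CPM, at or near the floor of 3 counts (0.115 to 0.190 CPM), and Krt1 at 4.26 to 5.72 CPM and Krt10 at 3.89 to 5.24 CPM lay above it. The skin list summed to 23.9, 24.9 and 20.7 CPM in trained and 17.997, 18.4 and 16.02 CPM in untrained replicates, the opposite order of groups to the Sprr1a means, with 4 of 4 tested genes positive, a median log2 fold change of 0.40 and 0 past edgeR's test. The close relative Sprr1b was at 0 to 0.123 CPM. Atf3, a transcription factor gene that injured neurons induce, was named after its values were seen: it was at 6.61, 7.40 and 14.99 CPM in trained and 13.6, 14.4 and 11.04 CPM in untrained replicates. With trained replicate 3 left out, Atf3 also passed edgeR's test, lower in trained cord. Like Sprr1a, Atf3 was lowest in trained replicates 1 and 2 and highest in trained replicate 3. The summed microglia markers were also lowest in trained replicates 1 and 2. Schwann cell markers, 7 genes summed, ran otherwise, at 173 CPM in trained replicate 1, 663 in trained replicate 2 and 428 in trained replicate 3, against 575, 593 and 431 CPM in the untrained libraries. The part of these cell types in the Sprr1a values was not tested.

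**Figure D5:**
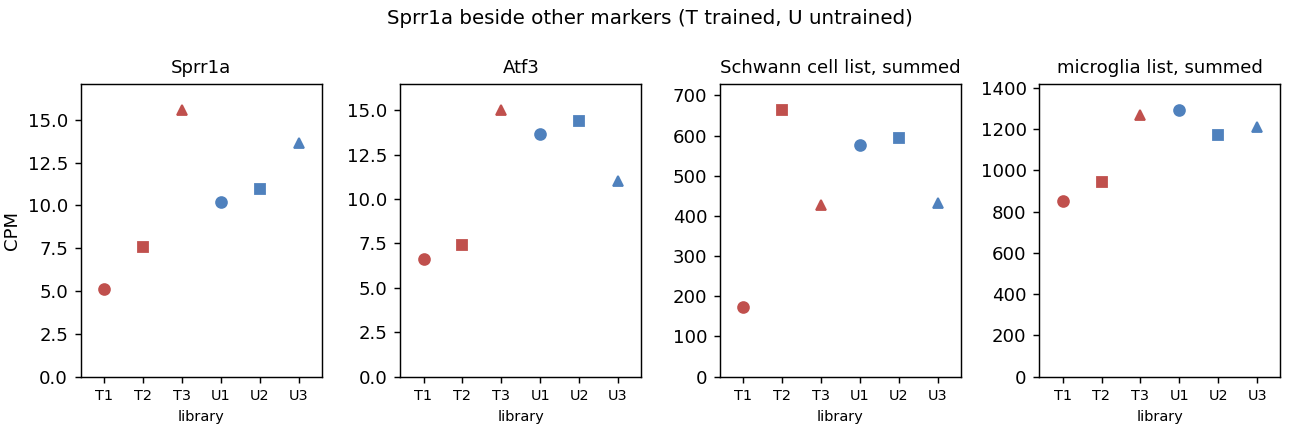
CPM (vertical, from 0) in each library (T1 to T3 trained, U1 to U3 untrained) of Sprr1a, Atf3, the sum of 7 Schwann cell markers and the sum of 8 microglia markers. Sprr1a and Atf3 are at 5.14 to 7.59 CPM in T1 and T2 and at 10.2 CPM or more elsewhere, while the Schwann cell sum is lowest in T1, at 173 CPM, and highest in T2, at 663 CPM.

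The 250 bases before the start site are printed for Sprr1a, the gene with the widest spread, and for Basp1 and Marcksl1, which were highest relative to untrained cord, to show how unlike these promoters are (RefSeq, GRCm38.p6, 5′ to 3′ on the gene's strand; capitals mark every match to a motif searched). They lie at chr3:92485882-92486131 on the minus strand (Sprr1a), chr15:25413765-25414014 on the minus strand (Basp1) and chr4:129513331-129513580 on the plus strand (Marcksl1). For Sprr1a this stretch overlaps the deposited gene span, which ends at base 92485895, so the sources differ in its start site. Promoters of 5 of the 10 genes were matched in the table used.
Sprr1a: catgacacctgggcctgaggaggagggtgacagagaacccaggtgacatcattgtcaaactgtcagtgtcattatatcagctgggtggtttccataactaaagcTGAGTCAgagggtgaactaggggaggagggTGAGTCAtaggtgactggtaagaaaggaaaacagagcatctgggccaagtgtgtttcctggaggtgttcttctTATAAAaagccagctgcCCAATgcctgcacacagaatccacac
Basp1: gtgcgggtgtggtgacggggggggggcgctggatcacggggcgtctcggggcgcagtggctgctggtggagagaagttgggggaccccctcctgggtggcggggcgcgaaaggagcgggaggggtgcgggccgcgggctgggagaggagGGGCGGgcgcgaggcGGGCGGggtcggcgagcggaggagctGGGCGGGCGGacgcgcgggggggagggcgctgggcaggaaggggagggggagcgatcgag
Marcksl1: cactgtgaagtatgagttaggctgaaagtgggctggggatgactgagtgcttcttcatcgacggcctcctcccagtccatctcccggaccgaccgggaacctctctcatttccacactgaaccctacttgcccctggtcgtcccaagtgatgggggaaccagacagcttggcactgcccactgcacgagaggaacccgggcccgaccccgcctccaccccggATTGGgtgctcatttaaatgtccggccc

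The AP-1 motif, which binds FOS and JUN proteins, was searched as TGANTCA. The cAMP response element was searched as TGACGTCA, the TATA box as TATAAA, the GC box as GGGCGG and the remaining motif as CCAAT, each on both strands. In the promoters shown no matches of different motifs overlapped. Counted from the RefSeq start site, Sprr1a held 2 AP-1 matches, at bases -146 to -140 and -116 to -110. It also held a TATAAA at -43 to -38 and a CCAAT at -26 to -22. At least 2 AP-1 matches were present in 0.338% of the 32851 promoters of this length, and at least 1 in 6.75%. TATAAA was present in 12.4%. Basp1 held 4 GC boxes, the last 2 overlapping, and 30 CpG dinucleotides, more than 94.1% of promoters. Marcksl1 held 12 CpG and a CCAAT on the other strand (ATTGG), and Sprr1a held 0 CpG. A match describes the letters only, and whether any factor bound these promoters was not measured.

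Of the 17 relatives of the 10 genes (other stathmins, collapsin response mediators, tubulins, the calmodulin-binding genes Nrgn and Pcp4, and 2 skin genes), 15 were tested and 0 passed. Log2 fold changes were positive in 12, where 48.0% of all genes were positive, with a median of 0.067. That median was 0.0033 with the length offset and -0.021 with the offset for length and GC content. Nrgn, neurogranin, which shares the calmodulin-binding motif of GAP-43 but acts in dendrites, had the smallest p. It was at 37.9, 37.4 and 34.6 CPM in trained and 26.6, 27.8 and 26.9 CPM in untrained replicates, with no overlap, and its log2 fold change was 0.43 ± 0.08 (SE; edgeR adjusted p = 0.111). DESeq2, and edgeR without a filter on low counts or without trained replicate 3, called Nrgn. Dpysl5, a developmental relative of Dpysl3, was at 0.24 ± 0.10 (log2 fold change ± SE, edgeR adjusted p = 0.445), opposite in sign to Dpysl3.

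Of 20 other growth cone cytoskeleton and adhesion genes, 0 passed. Log2 fold changes were positive in 13 and negative in 7, where 48.0% of all genes were positive, with a median of 0.019. Gprin1, a G protein-regulated inducer of neurite outgrowth, averaged 32.8 ± 3.30 CPM with training and 24.6 ± 3.18 CPM without it (SD, n = 3 each), a log2 fold change of 0.42 ± 0.11 (edgeR adjusted p = 0.264). It passed in edgeR without a filter on low counts and without trained replicate 3. Dbn1, the actin-binding drebrin gene, was at 0.18 ± 0.07 (log2 fold change ± SE, edgeR adjusted p = 0.406).

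Of 26 injury-induced regeneration factors 23 were tested and 0 passed. Their log2 fold changes were negative in 15 and positive in 8, where 48.0% of all genes were positive, with a median of -0.14. Some marker lists of other cells were negative throughout, with 0 past the main edgeR test in each. These were microglia in 8 of 8 genes (median -0.24), monocytes and macrophages in 6 of 6 (-0.37) and endothelium in 6 of 6 (-0.17). So were sensory ganglion neurons in 9 of 9 tested (-1.12), motor neurons in 6 of 6 (-0.22) and the Schwann cell markers tested. Without trained replicate 3 edgeR called 3 microglia genes. Without a filter on low counts it called 1 microglia, 2 endothelial, 1 sensory ganglion and 1 motor neuron gene. Others were mixed: 3 positive and 5 negative in astrocytes, 5 and 3 in oligodendrocytes, 4 and 4 in their precursors, and 3 and 3 in fibroblasts. The part of these cells in the regeneration factor values was not tested. Klf6, a zinc-finger factor linked to axon growth, was at 29.3, 35.8 and 35.4 CPM in trained and 50.4, 49.2 and 44.0 CPM in untrained replicates, without overlap, a log2 fold change of -0.52 ± 0.10 (SE; edgeR adjusted p = 0.105). Jun, an AP-1 subunit needed for regeneration of peripheral axons, was at 88.7 ± 4.61 and 110.1 ± 5.29 CPM (SD, n = 3 each), a log2 fold change of -0.31 ± 0.07 (edgeR adjusted p = 0.209). DESeq2, and edgeR without a filter on low counts or without trained replicate 3, called both Klf6 and Jun. Without trained replicate 3 edgeR called 4 of these factors, Atf3 among them, all lower in trained cord. Sox11, a factor of immature and regrowing neurons, had a positive log2 fold change of 0.28 (edgeR adjusted p = 0.514) and was named after its values were seen. Its groups did not overlap, as was true of 16.8% of all genes.

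Among 12 genes that limit axon growth from within the neuron, 1 fell (Klf4), 0 rose and 11 did not pass. By the same edgeR test, 0.0532% of all genes were lower and 0.00591% higher in trained cord. The median of the 12 was -0.13 (log2 fold change). Klf4, a zinc-finger factor that restrains neurite growth, was at 8.58, 10.8 and 10.5 CPM in trained and 34.3, 23.4 and 22.7 CPM in untrained replicates (edgeR adjusted p = 0.00968). Its call was lost without trained replicate 2 and with the replicate number as a block. Klf4 is also an early-response gene of other cells. Klf9, which responds to glucocorticoids and thyroid hormone, was at 75.1 ± 4.62 and 94.7 ± 2.11 CPM (SD, n = 3 each), a log2 fold change of -0.33 ± 0.07 (edgeR adjusted p = 0.16), and DESeq2 and edgeR without a filter on low counts called it. Endothelial markers, 6 genes, summed to 293 to 346 CPM in trained and 343 to 424 CPM in untrained libraries, and their part in the Klf4 values was not tested.

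The kinase, phosphatase, calmodulin and lipid-attaching enzyme genes listed as partners of GAP-43 and MARCKS showed 0 of 15 past the test. Log2 fold changes were positive in 5 and negative in 10, where 48.0% of all genes were positive, with a median of -0.059. The smallest p belonged to Zdhhc17, a palmitoyltransferase gene, at a log2 fold change of -0.13 ± 0.07 (SE; edgeR adjusted p = 0.531), and next came the protein kinase C gene Prkcd at -0.27 ± 0.15 (0.571, edgeR adjusted). Neuron markers, 12 genes, had a median log2 fold change of -0.0039 with 6 positive and 6 negative, beside the 0.072 of the 10 growth cone genes. With the length offset the order turned, at 0.028 for neuron markers and 0.0076 for the 10 genes. With the offset for length and GC content the medians were -0.017 and 0.037.

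The 5 genes whose log2 CPM followed Gap43 most closely over the 6 libraries, among 10748 genes at 10 CPM or more, were Shisa4, Uqcr10, Arl2, Syt5 and Pnck, with Pearson correlations of 0.986 to 0.996. All 5 are 584 to 2891 bases long, had positive log2 fold changes of 0.18 to 0.40 and had edgeR adjusted p-values of 0.144 to 0.406. The points share library depth, scaling and the length trend, and 6 libraries are few among so many genes, so this is a description of likeness.

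By the coordinates in the table, Gap43 (ENSMUSG00000047261) spans bases 42248442 to 42340651 of chromosome 16, Basp1 (ENSMUSG00000045763) 25363277 to 25413764 of chromosome 15, Marcks (ENSMUSG00000069662) 37133375 to 37138920 of chromosome 10 and Marcksl1 (ENSMUSG00000047945) 129513581 to 129515985 of chromosome 4. Stmn1 (ENSMUSG00000028832) spans 134468320 to 134473843 of chromosome 4, Stmn2 (ENSMUSG00000027500) 8509360 to 8561606 of chromosome 3, and Stmn3 (ENSMUSG00000027581) 181306459 to 181314500 of chromosome 2. Tubb3 (ENSMUSG00000062380) spans 123411424 to 123422015 of chromosome 8, Dpysl3 (ENSMUSG00000024501) 43320979 to 43438286 of chromosome 18 and Sprr1a (ENSMUSG00000050359) 92483952 to 92485895 of chromosome 3. All 10 are annotated as protein-coding, and 9 of them, all but Dpysl3, have the same ends in GENCODE M21 (GRCm38). The 3 annotated genes that overlap any of them, within the spans of Gap43, Stmn1 and Tubb3, held next to no counts.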

How the data were processed

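Total RNA was sequenced as 150 bp paired-end reads, per the labels' protocols. The values are raw counts by Ensembl gene, as the authors deposited them in a single table. Bowtie 0.12.2, mm8 and mm9 appear in the submitters' processing notes without a stated role. The gene ends in the table are nevertheless those of GENCODE M21 (GRCm38) for 9 of the 10 genes. How reads were assigned to genes, with or without strand, is not given in the sources used here.

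Testing relied on edgeR 4.0.16 in R 4.3.3 (TMM, filterByExpr, robust quasi-likelihood fit, group as the only term), with Benjamini-Hochberg adjustment over 16909 genes and a threshold of 0.05. CPM are scaled by TMM factors, and SE is the log2 fold change over the square root of F. The fit was tested on simulated data. Other settings tried were scaling by RLE or upper quartile, limma-voom (limma 3.58.1), DESeq2 1.42.0, other filters, a replicate block, leaving out each library, CPM without TMM factors and, after seeing the data, offsets for gene length and GC content. Length is the length column of the table. Count ratios between genes were chosen after values were seen and tested by exact permutation of libraries.

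The 10 genes and the gene lists were chosen with earlier results of these data known. The naming rule took the 10 genes, the 2 genes of smallest edgeR p from each of the 5 axon growth lists and the 5 genes most correlated with Gap43 at 10 CPM or more. Other genes were named after their values were seen. Protein sequences were not used here. Some marker genes are not reported here and were left out of the printed sums of Schwann cell markers.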

Additional observations from a re-analysis of the deposited data

How the results depend on the processing

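In every alternative that kept all 6 libraries 0 of the 10 genes passed, and leaving out 1 library gave 0 to 1 (Sprr1a, without trained replicate 3). Over all genes 10 passed, against 88 in DESeq2, 276 without a filter on low counts, 5 with the replicate block and 4 to 221 without single libraries (4 without trained replicate 2, 21 without trained replicate 1, 221 without trained replicate 3). The labels state no pairing of the samples by replicate number. Deviations of same-numbered libraries correlated at -0.228, -0.0768 and -0.172, and no trained library correlated best with its own number. These correlations cannot exclude a shared batch, because differences in the cells of single libraries also move them. With the replicate block the log2 fold change of Gap43 was 0.18 (edgeR adjusted p = 0.746).

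The median log2 fold change of the 10 genes was 0.063 to 0.13 without single libraries and 0.0076 with the length offset. With the length offset Marcks moved to -0.0015 and Tubb3 to -0.059, and with length and GC content Tubb3 moved to -0.11, Stmn2 to 0.041 and Stmn3 to -0.022, none past the test; these offsets act through length and GC by construction. Without single libraries the log2 fold change ranged from -0.030 to 0.073 in Tubb3, -0.057 to 0.070 in Marcks and -0.080 to 0.066 in Stmn2, each crossing 0. It kept its sign in the other 7 genes: 0.17 to 0.21 in Gap43, 0.16 to 0.23 in Basp1, 0.21 to 0.32 in Marcksl1, 0.11 to 0.22 in Stmn1, 0.059 to 0.23 in Stmn3, -0.16 to -0.10 in Dpysl3 and -0.86 to -0.0036 in Sprr1a. CPM without TMM factors moved no group mean of the 10 genes by more than its SD. The SE of Sprr1a was 0.43, and 0.20 without trained replicate 3.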

Other observations

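The motor neuron list had 6 of 6 negative log2 fold changes, with a median of -0.22 and 0 past edgeR's test. Its choline transporter gene Slc5a7 was at 77.8, 60.1 and 48.3 CPM in trained and 84.5, 84.8 and 90.1 CPM in untrained replicates, without overlap (edgeR adjusted p = 0.426), and passed in edgeR without a filter on low counts and without trained replicate 1. Of 7 markers of immature neurons, 5 had positive and 2 negative log2 fold changes, with 0 past edgeR's test. Dcx averaged 11.2 ± 0.690 CPM with training and 9.58 ± 0.745 CPM without it (SD, n = 3 each; edgeR adjusted p = 0.587), without overlap, while Igfbpl1 had a log2 fold change of -0.52 (edgeR adjusted p = 0.497) and Nhlh1 of -0.62 (edgeR adjusted p = 0.713).

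GC content moved with the fold change as gene length did. Over protein-coding genes at 10 CPM or more, the median log2 fold change was -0.080 in the fifth of genes with the lowest GC content (33.05% to 43.92%) and 0.070 in the fifth with the highest (55.68% to 71.32%). With an offset for both length and GC content the log2 fold changes were 0.12 for Gap43, 0.11 for Marcksl1, 0.086 for Basp1 and -0.11 for Dpysl3, with edgeR adjusted p-values of 0.686, 0.784, 0.798 and 0.743.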
